A study of Equus caballus with 4 samples.

Results

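NF-kB is a family of transcription factors built as pairs of 5 subunits, which are encoded by NFKB1, NFKB2, REL, RELA and RELB. Together with them, 5 genes for IkB proteins and a feedback enzyme were examined, namely NFKBIA, NFKBIE, NFKBIZ, TNFAIP3 and BCL3. They are called inhibitors here, although the nuclear IkB proteins of NFKBIZ and BCL3 can also act as co-activators of NF-kB target genes. The genes were found by their symbol in the name column of the scanner files, and this gave 7 of the 10 genes with 13 probes, out of 24998 names and 43603 probes on the array. NFKB2, NFKBIE and BCL3 carried another entry in that column and were named through the description column, 1 probe each. Their values are given beside the others, and counts are stated first for the 13 probes.

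The cells were equine satellite cells (ESC), the stem cells of skeletal muscle, taken on day 3 of differentiation. HMB is a product of leucine breakdown, and the HMB-treated cells were given 50 µM of it during 24 h, with 3 mM H2O2 added for the last 1 h. Control cells received the same H2O2 and no HMB, so cells without H2O2 are in neither group. ESC came from m. semitendinosus of stallions aged 6 months, and the culture that scored best for viability and fusion was chosen, hence n = 4 may not stand for 4 animals. Each of 4 Agilent arrays carried Cy5-labeled HMB-treated RNA and Cy3-labeled control RNA. The dyes were never swapped, so treatment and dye cannot be told apart, and in the labels the control carries 1 replicate number throughout. All arrays were on 1 slide. A log2 ratio above 0 means more signal in the HMB-treated cells, and FC is the fold change.

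In resting cells, NF-kB dimers are kept in the cytoplasm by IkB proteins. The IKK kinase complex marks IkB for degradation, and the freed dimers enter the nucleus and switch on genes of inflammation and survival. Among these genes are several of the pathway's own parts, both subunits and inhibitors, so that the inhibitors close a feedback loop. In myogenic cells, NF-kB is known for its part in inflammation, proliferation and the control of differentiation.

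What was measured for each gene is the signal on a probe of 60 bases. The sequences of 6 of these probes are shown, 1 for each of 4 subunits and of 2 inhibitors, and the values of each are given below. For REL and NFKBIA the probe shown is not the brightest one, whose values are given as well. They are printed 5′ to 3′ in the sense of the transcript, with no letter marked.
NFKB1: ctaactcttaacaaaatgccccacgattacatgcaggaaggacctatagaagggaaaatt
RELB: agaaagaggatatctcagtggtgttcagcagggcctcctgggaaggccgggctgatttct
REL: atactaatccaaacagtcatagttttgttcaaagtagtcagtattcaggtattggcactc
RELA: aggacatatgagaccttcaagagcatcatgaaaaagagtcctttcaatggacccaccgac
NFKBIA: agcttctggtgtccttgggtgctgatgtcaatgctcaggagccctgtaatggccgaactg
TNFAIP3: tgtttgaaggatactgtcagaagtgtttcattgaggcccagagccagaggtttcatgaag

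The files place these probes on the EquCab1 build, with no exon or UTR named. The NFKB1 probe lies on the plus strand at chr3:62066342-62066401. The RELB probe lies on the plus strand at chr10:15748532-15752762, and its 60 bases cover 4231 bases of the genome, so the target is not contiguous there. The REL probe lies on the minus strand at chr15:36869500-36869560, next to a second REL probe at chr15:36869440-36869499. The RELA probe lies on the minus strand at chr12:16197788-16197936 and covers 149 bases. The NFKBIA probe lies on the minus strand at chr1:165894165-165894345 and covers 181 bases. The TNFAIP3 probe lies on the plus strand at chr10:77854096-77854155. Of the other probes, NFKB2 is at chr1:27077595-27077654, NFKBIE at chr20:36569541-36569600, NFKBIZ at chr19:49840318-49840377 and BCL3 at chr10:15489081-15489140. The BCL3 and RELB probes lie 259392 bases apart.

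Most of the NF-kB genes that could be tested were higher in HMB-treated cells, and the ratios of NFKBIA and NFKBIZ were above those of every subunit on each array. Of the 13 probes named by symbol, 12 could be tested and 11 were called higher, while 0 were called lower. Over all 24670 tested probes, 28.6% were called in either direction and 12.1% were called higher. For a call, limma had to give an adjusted p (Benjamini-Hochberg) no greater than 0.05 and the FC had to reach 1.3. At an unadjusted p under 0.05, limma gave 0 lower probes as well, and limma's treat, which tests against the FC threshold, called 9 higher and 0 lower. With the genes named through the description, 14 of 16 probes were tested and 13 were called higher. Counted as genes, 7 of the 8 tested were higher. The 2 genes that could not be tested were TNFAIP3 and BCL3, as their signals were too dim.

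**Figure D1:**
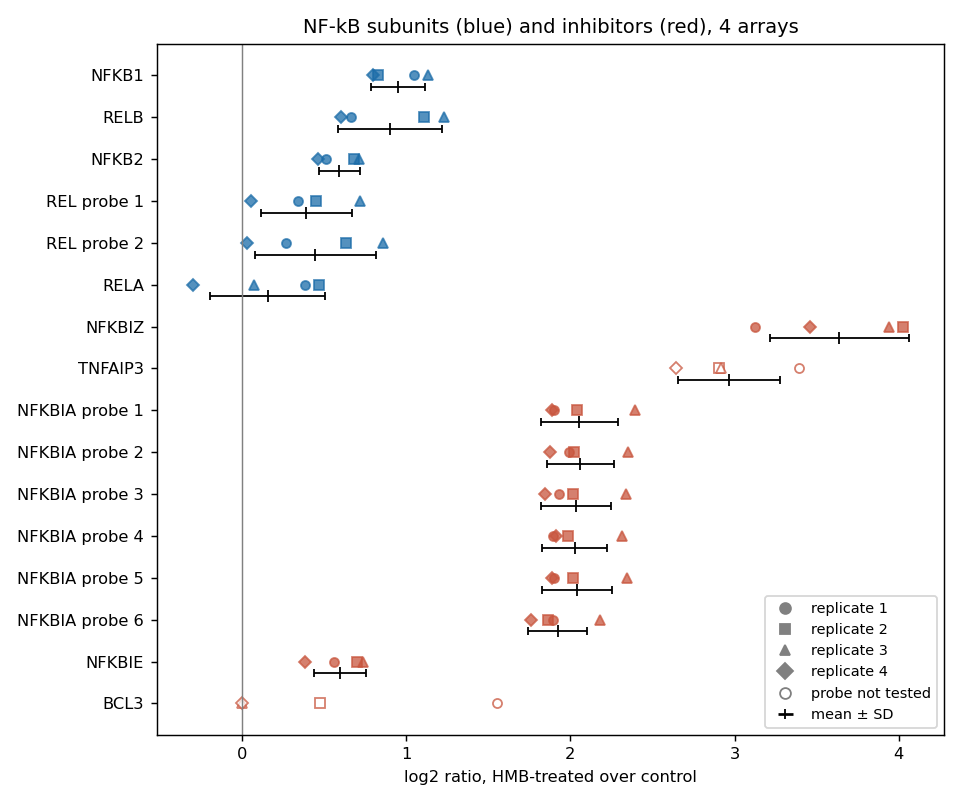
Log2 ratio of HMB-treated over control cells (x axis) for each probe of the 10 genes (y axis). Symbols are the 4 arrays, filled where the probe was tested, and the bars give mean ± SD, except for BCL3, which had no level above background. All NFKBIA and NFKBIZ points lie at 1.76 or higher and all subunit points at 1.23 or lower, while the TNFAIP3 points rest on a control signal that was not well above background.

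Among the subunits, NFKB1 encodes p105, the precursor of p50. Its log2 ratio was 1.04, 0.83, 1.14 and 0.80 on replicates 1 to 4, with a mean of 0.95 ± 0.16 (SD, n = 4), an FC of 1.93 and an adjusted p of 0.000293. All 4 arrays were at 0.80 or higher. The processed Cy3 signal of the control lay between 136 and 171, and the Cy5 signal of the HMB-treated cells between 246 and 376, so the channels did not overlap. Of all tested probes, 4.73% had a higher mean ratio.

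RELB encodes the subunit of the alternative pathway that pairs with p52. The log2 ratio of RELB was 0.66, 1.11, 1.23 and 0.60, which gave 0.90 ± 0.32 (SD, n = 4), an FC of 1.87 and an adjusted p of 0.00191. Replicates 2 and 3 were higher than replicates 1 and 4. The Cy3 signals of RELB lay between 30.9 and 48.8 and its Cy5 signals between 46.9 and 100.1, and these ranges met only at their ends. With normexp background correction the ratio was 0.29 and fell below the FC threshold.

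NFKB2 encodes p100, which is the precursor of p52 and holds RELB in the cytoplasm like an IkB. Its log2 ratio was 0.51, 0.68, 0.71 and 0.46, with a mean of 0.59 ± 0.12 (SD, n = 4), an FC of 1.51 and an adjusted p of 0.00117. The arrays lay close together, and the Cy3 signals, 2517 to 3248, did not overlap with the Cy5 signals, 3469 to 5317.

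REL (c-Rel) just passed the thresholds. Its brighter probe gave log2 ratios of 0.34, 0.45, 0.72 and 0.05, with a mean of 0.39 ± 0.28 (SD, n = 4), an FC of 1.31 and an adjusted p of 0.0285. The adjacent REL probe, whose sequence is shown above, gave 0.27, 0.63, 0.86 and 0.03, with 0.45 ± 0.37 and an adjusted p of 0.0394. On both probes replicate 3 was the highest and replicate 4 was close to 0. The probes differed by at most 0.19 on any array, which is less than the spread between arrays. The call of REL was lost when replicate 1, 2 or 3 was left out (0.41, 0.37 and 0.28), and under 6 other settings, while scaling to spike-in RNA turned its ratio to -0.10.

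RELA encodes p65, the main activating subunit of the classical pathway. Its log2 ratio was 0.38, 0.47, 0.07 and -0.30, with a mean of 0.16 ± 0.35 (SD, n = 4) and an adjusted p of 0.369, so it was not called. The arrays fell on both sides of 0, replicate 4 being the only one below. Without replicate 4 the mean was 0.31 and was not called either, and with scaling to spike-in RNA it was -0.33. The Cy3 signals of 73.2 to 95.1 and the Cy5 signals of 59.4 to 104 overlapped.

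**Figure D2:**
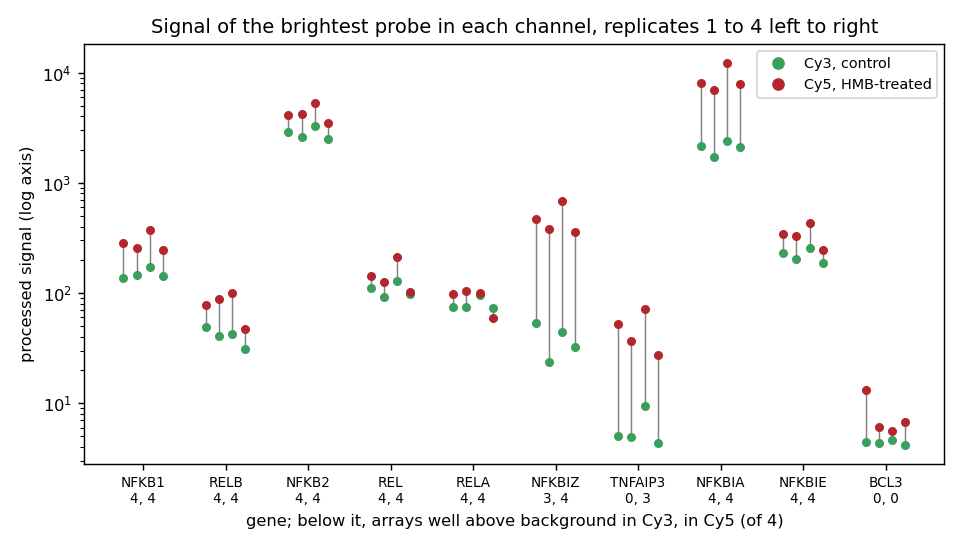
Processed signal (log y axis, arbitrary units) of the brightest probe of each gene (x axis), with the control (Cy3, green) and the HMB-treated cells (Cy5, red) of 1 array joined by a line. Below each gene are the numbers of arrays well above background in Cy3 and in Cy5. The lines are longest for NFKBIZ and TNFAIP3, and TNFAIP3 and BCL3 have no Cy3 signal well above background. Heights of different genes are not comparable, as probes differ in their response.

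Among the inhibitors, NFKBIZ had the highest ratio. It encodes IkB-zeta, a nuclear IkB protein that modulates NF-kB at a subset of inflammatory genes. The log2 ratio was 3.12, 4.03, 3.94 and 3.46, with a mean of 3.64 ± 0.42 (SD, n = 4), an FC of 12.4 and an adjusted p of 1.81e-05. Only 0.58% of the tested probes had a higher ratio. The Cy3 signal lay between 23.4 and 53.2, with 3 of 4 arrays well above background, while the Cy5 signal lay between 357 and 677. The size of the ratio moved with how background was handled. The mean was 1.67 after normexp correction and 2.20 without any correction, and NFKBIZ was called higher in both. After normexp correction NFKBIZ no longer had the highest ratio, as NFKBIA was at 1.97.

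NFKBIA encodes IkB-alpha, the IkB protein that retains the classical dimers and is resynthesized upon NF-kB activation. It had 6 probes, and all of them were called higher, with FC between 3.79 and 4.17. The brightest gave log2 ratios of 1.90, 2.02, 2.35 and 1.89, with a mean of 2.04 ± 0.21 (SD, n = 4) and an adjusted p of 2.36e-05. Its signals lay between 1730 and 2398 in Cy3 and between 6993 and 12194 in Cy5, with no overlap.

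These probes are not independent, since 5 of them share 56 bases within chr1:165893465-165893528. On the same array the 5 differed with a mean SD of 0.028, whereas their average differed between arrays with an SD of 0.21. The sixth probe, shown above, targets a stretch 637 bases away. It gave 1.90, 1.86, 2.18 and 1.76, with a mean of 1.92 ± 0.18. The mean of the 5 overlapping probes was higher than the sixth probe on 4 of 4 arrays, by 0.12 ± 0.06 (SD, n = 4). On replicate 1 this gap was 0.03, and not every overlapping probe was above the sixth there. The targets in the same transcript thus gave ratios that differed by less than the spread between arrays.

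TNFAIP3 encodes A20, a ubiquitin-editing enzyme that shuts off signaling upstream of IKK. Its log2 ratio was 3.40, 2.91, 2.92 and 2.65, with a mean of 2.97 ± 0.31 (SD, n = 4), and the arrays were higher with HMB in 4 of 4. The Cy3 signal, 4.39 to 9.36, was not well above background on any array, and the Cy5 signal, 27.5 to 70.8, was so on 3 of 4. The control level is therefore only a bound. The bound was set at the lowest Cy3 signal that counted as well above background on each array (18.3 to 23.6). Against it, TNFAIP3 was 2.08-fold higher in HMB-treated cells, averaged over the 4 arrays on the log2 scale. The fold was smaller on replicate 4, where Cy5 was 27.5 against 20.7. The average includes the array on which Cy5 was not well above background. TNFAIP3 was not among the tested probes. Without the filter on dim probes limma called it higher, with an adjusted p of 0.00465. That p rests on the same control signal that was not well above background, so it does not test a measured fold. For a single value, the exact two-sided sign-flip test over 4 arrays cannot go below 0.125.

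NFKBIE encodes IkB-epsilon, another cytoplasmic IkB protein. The log2 ratio was 0.56, 0.70, 0.74 and 0.38, with a mean of 0.60 ± 0.16 (SD, n = 4), an FC of 1.51 and an adjusted p of 0.00178. Its Cy3 signals of 187 to 256 and Cy5 signals of 244 to 428 overlapped in range, but Cy5 was higher within each array. In contrast to NFKBIZ and NFKBIA, its ratio lay within the range of the subunits. Both NFKBIE and NFKB2 were no longer called when the arrays were scaled to spike-in RNA (0.11 and 0.10, respectively), nor by limma's treat (adjusted p of 0.116 and 0.0869).

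BCL3 encodes a nuclear IkB protein that binds p50 and p52 dimers. Its probe was not well above background in either channel on any array, with signals from 4.21 to 4.60 in Cy3. In Cy5 they were 6.02, 5.61 and 6.73 on replicates 2 to 4 and higher on replicate 1. No fold is given for BCL3, and its expression was not detectable with this probe.

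The question set by the grouping was whether inhibitors and subunits shifted to the same extent. The median log2 ratio of the 8 inhibitor probes was 1.92, 2.02, 2.35 and 1.89 on replicates 1 to 4. For the 5 subunit probes it was 0.38, 0.63, 0.86 and 0.05. The difference was 1.53, 1.38, 1.49 and 1.83, with a mean of 1.56 ± 0.19 (SD, n = 4), and it had the same sign on each array. On each array, all NFKBIA and NFKBIZ probes were above all subunit probes. As NFKBIA makes up 6 of the 8 inhibitor probes, the median of this group is in essence that of NFKBIA. With the 12 tested probes alone it was 1.56 ± 0.19, and with TNFAIP3 set to its bound on each array 1.55 ± 0.19. With probes averaged within the 8 tested genes, the difference was 1.41 ± 0.09. Here too the inhibitor median is NFKBIA, the middle 1 of the 3 tested inhibitors on each array. The 2 values are therefore not independent of each other. When TNFAIP3 was added to the 8 tested genes at its bound, the difference was 0.93 ± 0.30. The size at the gene level thus depends on a level that was not measured. A shift common to all probes cancels in this difference, and scaling to spike-in RNA left it at 1.56. No p is given for it, as the members were chosen together.

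**Figure D3:**
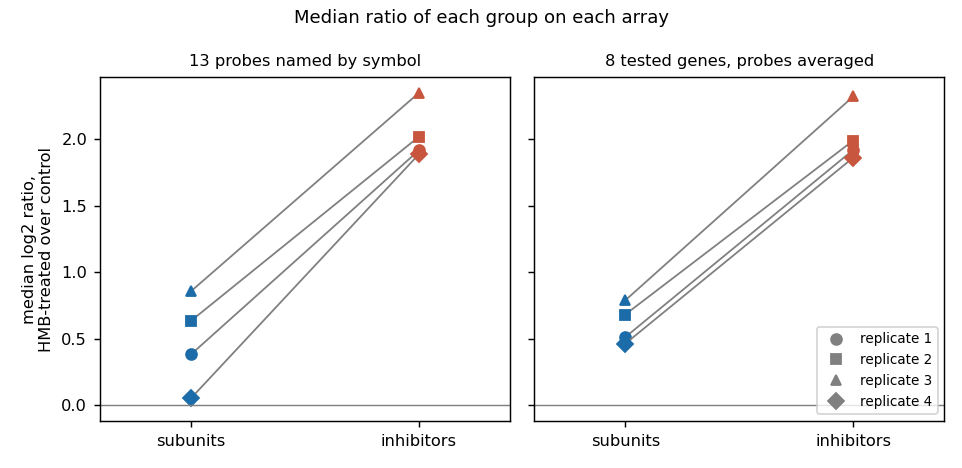
Median log2 ratio of subunits (blue) and inhibitors (red) on each array, with lines joining the values of 1 array, for the 13 probes named by symbol (left) and for the 8 tested genes with probes averaged (right). The inhibitor median lies above the subunit median on 4 of 4 arrays in both panels, by 1.56 and 1.41 on average. In the right panel the inhibitor median is NFKBIA, while NFKBIE, not shown by itself, lay within the range of the subunits.

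Ordered by the ratio, the 8 tested genes were NFKBIZ, NFKBIA, NFKB1, RELB, NFKBIE, NFKB2, REL and RELA, and TNFAIP3 and BCL3 have no place in this order. NFKBIZ exceeded NFKBIA by 1.61 ± 0.34 (SD, n = 4), and NFKBIA exceeded NFKB1 by 1.07 ± 0.14, in both cases without overlap. The order of NFKBIZ and NFKBIA depended on how background was handled. With normexp correction NFKBIZ was below the brightest NFKBIA probe (1.67 against 1.97). Without any correction they were close (2.20 against 2.07). From NFKB1 downward, the array values of each gene overlapped with those of the next one. RELB was nevertheless above NFKBIE on 4 of 4 arrays, by 0.31 ± 0.18. This turned with background handling, as RELB was below NFKBIE with normexp (0.29 against 0.40) and without any correction (0.40 against 0.52). NFKB1 was above RELB on 2 of 4 arrays, and RELB had the higher mean without replicate 1 (0.98 against 0.92). NFKB1 and RELB differed by 0.05 ± 0.30 and NFKBIE and NFKB2 by 0.00 ± 0.06, that is, not beyond the spread between arrays.

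The members also varied together between the arrays. The highest ratio was on replicate 3 in 6 of the 8 tested genes and the lowest on replicate 4 in 7 of them. Replicate 4 had the lowest ratio in all 5 subunits. Among all probes called higher, 41.0% had their highest ratio on replicate 3 and 43.3% their lowest on replicate 4. These were the largest such shares of the 4 arrays, although neither was a majority. Over all tested probes, 30% had their highest ratio on replicate 3.

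**Figure D4:**
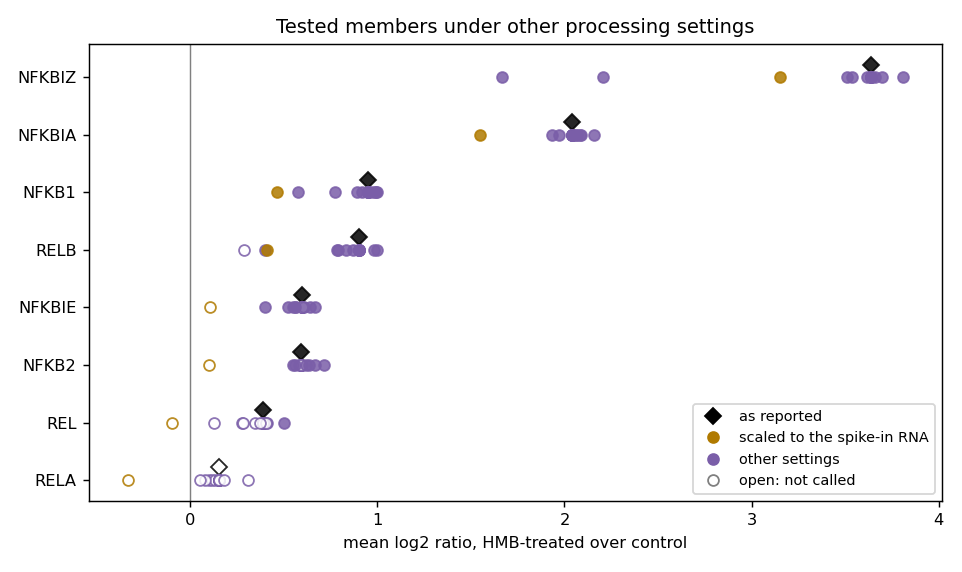
Mean log2 ratio (x axis) of the 8 tested genes (y axis) as reported (diamond) and under each other processing setting (circles), with open symbols where the gene was not called. NFKB1, NFKBIA and NFKBIZ are called in every setting in which they were tested, REL is open in most, and scaling to spike-in RNA puts REL and RELA below 0.

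The other genes of the pathway were taken from 3 lists, each gene being represented by its brightest tested probe. In the IKK complex and its activating kinases, 8 of 10 genes were tested, of which 3 were higher and 1 was lower, with a median log2 ratio of 0.20. IKBKE, an IKK-related kinase that is itself induced in inflammation, rose by 1.18 ± 0.25 (SD, n = 4), with its control signal well above background on 2 of 4 arrays. TBK1, its closest relative, rose by 0.67 ± 0.11 and IKBKB, the catalytic subunit of classical IKK, by 0.53 ± 0.22. MAP3K7 (TAK1), the kinase upstream of IKK, fell by 0.66, with a mean of -0.66 ± 0.16. With scaling to spike-in RNA, 1 gene of this list was higher and 3 were lower. The median over all tested probes was -0.07. Beside the counts of the 3 lists, the shares over all tested probes were 12.1% called higher and 28.6% called in either direction.

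Of the other IkB proteins and brakes on NF-kB, 9 of 15 were tested, 3 were higher and 2 were lower, with a median of -0.0016. The deubiquitinase CYLD rose by 0.84 ± 0.14 (SD, n = 4). N4BP1 and TNIP1, a partner of A20, rose by 0.78 ± 0.11 and 0.61 ± 0.20, respectively. PDLIM2, a ubiquitin ligase for nuclear p65, had a ratio of -0.59 ± 0.11, and RNF11, a component of the A20 complex, also -0.59 ± 0.15, both called lower. The inhibitors of this list did not shift as one group, with values on both sides of 0. With scaling to spike-in RNA, 0 of them were higher and 5 were lower.

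Of 22 other known targets of NF-kB, 17 were tested, 12 were higher and 2 were lower, with a median of 1.74. The largest ratios were those of the chemokines CCL20 (6.77 ± 0.20, SD, n = 4) and CXCL6 (6.04 ± 0.52) and of the adhesion molecule VCAM1 (5.51 ± 0.18). For CXCL6, the control signal counted as well above background on 3 of them. In the opposite direction, CD83 was at -0.84 ± 0.31 and GADD45B at -0.51 ± 0.18. The list was written with earlier results of these arrays known, so its count is not independent evidence.

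**Figure D5:**
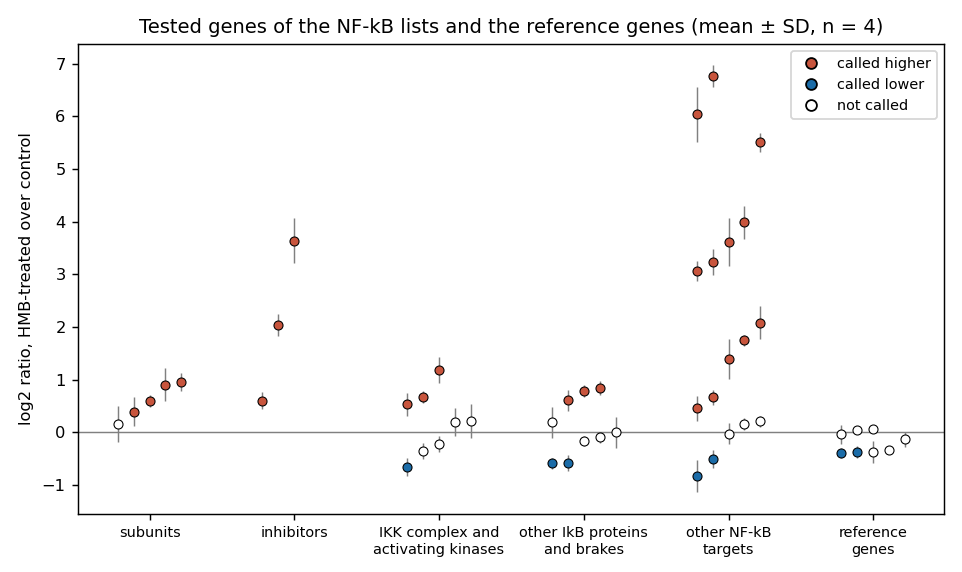
Log2 ratio (y axis, mean ± SD, n = 4) of the tested genes in the groups of the NF-kB pathway and among reference genes (x axis), 1 point per gene. Red points were called higher, blue ones lower and white ones were not called. Only the other NF-kB targets reach beyond the inhibitors, up to 6.77, and the kinases and the other brakes lie on both sides of 0.

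Of 8 reference genes, 2 were called, PPIA at -0.38 ± 0.11 and SDHA at -0.39 ± 0.09 (SD, n = 4), and both were lower. PPIA was called on 2 of its 5 probes. Over all tested probes, 28.6% were called in either direction. ACTB at -0.38 ± 0.21 and HPRT1 at -0.35 ± 0.04 fell short of the FC threshold, and the median of the list was -0.24. GAPDH was at 0.04 ± 0.06 and RPLP0 at 0.07 ± 0.04. The ratios of the members are relative to the bulk of the transcripts on each array. Scaling to spike-in RNA shifted the median of all tested probes by -0.49, and NFKB1, RELB, NFKBIA and NFKBIZ were called higher in that case as well.

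Markers of cell types moved between the groups as well. Over all tested probes, 28.6% were called in either direction and 12.1% were called higher. In bulk samples, a change in the share of a cell type and a change of RNA per cell cannot be told apart. Of 8 myogenic and satellite cell markers, 7 were tested and 5 were lower, with MYF5 at -1.49 ± 0.34 and MYH3 at -1.38 ± 0.33 (SD, n = 4). MYOD1 and MYOG were measured but not called, and PAX7, the defining marker of resting satellite cells, had no tested probe. The summed signal of this list was 106236 to 121152 in the control and 37621 to 61432 in the HMB-treated cells. Of 6 fibroblast and connective tissue markers, 4 were higher, among them PDGFRA (1.49 ± 0.26), DCN (0.77 ± 0.18) and THY1 (0.76 ± 0.12). The collagens of the list were not called, with COL1A1 at 0.18 ± 0.37 and COL1A2 at -0.23 ± 0.34. The summed signals of this list overlapped, with 311235 to 381660 in the control and 306307 to 473993 in HMB-treated cells. Of 6 leukocyte markers, 3 were tested and 2 were higher, namely CD68 (0.88 ± 0.20) and PTPRC (0.51 ± 0.15). The sums of this list were 15859 to 20189 in the control and 19312 to 30922 in the HMB-treated cells, and ITGAM, CSF1R and CD3E had no tested probe. None of the 5 endothelial markers had a tested probe. The part of these markers in the ratios of the NF-kB genes was not tested.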

How the data were processed

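Per the file headers, the authors' scanner files were written by Feature Extraction 10.10.1.1. They hold the intensity of each spot in both channels, from which background had been subtracted and which had been normalized within each array (linear, then lowess). The deposited log10 ratios (Cy5 over Cy3) were converted here to log2 by a change of base. A table deposited by the authors repeats these log10 ratios to within 3.96e-05. Feature Extraction substitutes a surrogate for signals at or below background.

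Control spots and marked spots (13 to 35 per array) were left out, and spots of 1 probe were averaged. For a probe to be tested, 1 and the same channel had to be well above background on each of the 4 arrays, with at least 3 ratios present. The log2 ratios were tested against 0 with limma 3.58.1 in R 4.3.3, with empirical Bayes moderation and Benjamini-Hochberg correction over 24670 probes. Where a channel was never well above background, a bound was computed. The procedure was tested on simulated data.

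The members and the gene lists were chosen with earlier results of these data known. All members are named. From the other lists, the called genes with the 3 largest rises and the 2 largest falls are named, and from the reference genes all called ones. GAPDH, RPLP0, ACTB, HPRT1 and the uncalled markers were named after their values were seen. In the leukocyte list, 1 marker is not reported here. The alternatives comprised 3 other background or normalization procedures, spike-in scaling, a correction for GC content, the authors' table, other filters, the methods' t-test, limma's treat and leaving out each array.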

Additional observations from a re-analysis of the deposited data

How the results depend on the processing

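The direction of NFKB1, NFKB2, RELB, NFKBIA, NFKBIE and NFKBIZ was the same under every alternative in which they were tested. The call of each was kept by 13 to 15 of the alternatives. The authors' table, the filters, keeping marked spots, the methods' t-test and treat left these means unchanged, so they could not turn a direction. Leaving out 1 array could not either, as these genes were above 0 on all 4 arrays. Only the background and normalization procedures, spike-in scaling and GC correction could. Scaling to spike-in RNA reversed REL (-0.10) and put RELA at -0.33. The difference between inhibitors and subunits was 1.77 with means in place of medians and 2.28 with probes averaged in the genes named by symbol. Both use the ratio of TNFAIP3, whose control was not well above background, and in the latter it is the median of the inhibitors on 3 of 4 arrays. With TNFAIP3 at its bound and BCL3 left out, the gene-level value was 0.93. The settings by symbol, by tested genes and by bound were chosen after seeing the data. It was 1.47 to 1.62 with 1 replicate left out. The number of member probes called was 8 to 11 for the 13 probes under the other settings, and 9 higher and 0 lower with the methods' t-test, both before and after the correction. The 4 called genes of the IKK list became 2 with normexp, with both channels well above background or with treat, and the 5 of the other brakes became 2 with treat. With the spike-in RNA, the numbers of calls in these lists stayed at 4 and 5, but the split turned from 3 higher and 1 lower to 1 and 3 (IKK), and from 3 and 2 to 0 and 5 (brakes). The 2 called reference genes became 0 with normexp, with no background correction or with treat, 4 (all higher) with median centering, 8 (all lower) with the spike-in RNA, and 1 to 2 with 1 replicate left out (1 without replicate 2 or without replicate 4). The cause was not tested. Over all probes, the 7046 calls became 3539 with normexp, 4440 with no background correction, 2822 with treat and 18571 with the spike-in RNA, and the share that was higher, 42.5%, became 55.0%, 60.1%, 54.6% and 6.71%, respectively. Each ratio sets both samples of 1 array against each other, so the tests are paired by array and no further replicate block was fitted. It is not clear from the labels whether the control was 1 RNA on all arrays. If it was, the 4 ratios shared their control, and the SD and p values leave out its variation. NFKBIZ has no value with the filter on both channels. The dim signals of TNFAIP3, BCL3 and the NFKBIZ control limit their precision.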
